A study of Mus musculus with 14 samples.

Results

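The heterogeneous nuclear ribonucleoprotein (hnRNP) genes and the SR splicing factor genes were followed through the steps by which aortic endothelium gives rise to haematopoietic cells in the mouse embryo. The members were the genes whose symbol begins with Hnrnp or is Srsf followed by a number. This gave 29 genes, 18 Hnrnp and 11 Srsf, of the 19322 genes listed for E10 single cells, 19424 for E11 single cells and 19425 for whole intra-aortic haematopoietic clusters (wIAHCs). All 29 were listed in each table, and 0 of the matching rows were pseudogenes.

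Single cells were sorted from pooled aorta-gonad-mesonephros regions, or from yolk sacs, at E10 (28 to 32 somite pairs) and E11 (over 40 somite pairs). Whole clusters were picked one by one from the aorta. Non-haemogenic endothelial cells (non-HE, Cdh5+ Gfi1- Gfi1b- c-kit-), haemogenic endothelial cells (HE, Cdh5+ Gfi1+ Gfi1b- c-kit-) and cells in endothelial-to-haematopoietic transition (EHT, Cdh5+ Gfi1+ Gfi1b- c-kit+) came from ICR embryos, sired by reporter males on wild-type females, and are all labelled with the genotype Gfi+/tomato/ Gfi1b+/GFP. Whether every embryo carried both reporters is not given. Cells of intra-aortic haematopoietic clusters (IAHCs, c-kit+ CD31+, and at E11 also a c-kit+ sort), pre-HSCs of type I and type II (c-kit+ Cdh5+ with CD45 index, E11 only), yolk sac (YS) c-kit+ cells and wIAHCs came from wild-type C57BL/6 embryos. Strain therefore cannot be told apart from population wherever an ICR and a C57BL/6 population are compared. In the paper the sorted IAHC cells were further selected by their transcripts. Cells with Gpr56 above a cutoff were kept, and cells with transcripts of non-IAHC genes above a cutoff were removed. The columns of the E10 non-HE cells are named early E11, whereas their label gives E10. Other column names also give ages within a stage. E10 HE columns are named E10.5 and E10 EHT columns E10.5 or late E10. E11 non-HE columns are named late E11 or E11.5, and E11 HE and EHT columns late E11. Where these names differ, age cannot be told apart from population. There were 43 non-HE, 98 HE, 191 EHT, 73 IAHC and 141 YS cells at E10. At E11 there were 30 non-HE, 46 HE, 46 EHT, 62 type I pre-HSC, 55 type II pre-HSC, 201 c-kit+ CD31+ IAHC, 89 c-kit+ IAHC and 46 YS cells.

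hnRNPs coat newly made RNA, and many of them hold back the use of nearby splice sites. SR proteins carry an arginine- and serine-rich tail, bind exonic enhancers and recruit the spliceosome to them, and they enter the nucleus and become active after phosphorylation by SRPK and CLK kinases. Both families often act on the same exons with opposite effects, and many members control their own messages through exons that send the RNA to decay. The endothelial-to-haematopoietic transition is the process by which HE loses its endothelial shape and enters the clusters as rounded haematopoietic cells. The libraries tag the 3′ end of each message once, so that they count molecules of a gene without its length and do not show which isoform was made.

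Promoters are shown for 2 SR genes that were higher in EHT and cluster cells than in HE cells at both stages (Srsf2 and Srsf3), for the most abundant member (Hnrnpa2b1) and for 2 SR genes that were lower in E10 IAHC than in non-HE cells (Srsf5 and Srsf6). Each line gives the 250 bases before the RefSeq start, 5′ to 3′ on the strand of the gene, in GRCm38. Capitals mark TATAAA on the gene's strand and CCAAT on either strand (ATTGG when read from the other strand). The windows are chr11:116853095-116853344 (minus strand) for Srsf2, chr17:29032410-29032659 (plus) for Srsf3, chr6:51469895-51470144 (minus) for Hnrnpa2b1, chr12:80945249-80945498 (plus) for Srsf5 and chr2:162931258-162931507 (plus) for Srsf6.
Srsf2: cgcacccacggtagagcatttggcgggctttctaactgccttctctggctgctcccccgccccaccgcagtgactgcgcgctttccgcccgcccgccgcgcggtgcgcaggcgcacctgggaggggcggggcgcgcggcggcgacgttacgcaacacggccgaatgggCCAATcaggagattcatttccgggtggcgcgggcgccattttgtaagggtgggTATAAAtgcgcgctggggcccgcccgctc
Srsf3: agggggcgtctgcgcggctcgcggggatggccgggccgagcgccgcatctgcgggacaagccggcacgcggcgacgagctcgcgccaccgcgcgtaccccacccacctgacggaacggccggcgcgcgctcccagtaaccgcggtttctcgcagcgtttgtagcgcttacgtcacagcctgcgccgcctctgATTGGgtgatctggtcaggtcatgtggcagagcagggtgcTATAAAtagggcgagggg
Hnrnpa2b1: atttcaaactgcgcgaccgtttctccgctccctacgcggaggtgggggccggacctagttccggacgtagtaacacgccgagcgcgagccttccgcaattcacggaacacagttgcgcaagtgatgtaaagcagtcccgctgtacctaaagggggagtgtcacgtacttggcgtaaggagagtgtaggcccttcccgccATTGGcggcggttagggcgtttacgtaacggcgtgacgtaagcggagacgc
Srsf5: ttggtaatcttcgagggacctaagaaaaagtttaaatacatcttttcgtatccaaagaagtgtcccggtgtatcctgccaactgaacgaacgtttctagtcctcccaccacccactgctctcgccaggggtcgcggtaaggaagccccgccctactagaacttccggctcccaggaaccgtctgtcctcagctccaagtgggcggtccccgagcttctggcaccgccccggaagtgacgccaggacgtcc
Srsf6: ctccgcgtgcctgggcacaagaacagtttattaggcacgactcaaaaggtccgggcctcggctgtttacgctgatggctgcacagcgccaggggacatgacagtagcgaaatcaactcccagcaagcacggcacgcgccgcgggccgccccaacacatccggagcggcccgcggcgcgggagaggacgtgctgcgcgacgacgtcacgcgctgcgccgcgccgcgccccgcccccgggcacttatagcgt
Srsf2 and Srsf3 held both motifs, Hnrnpa2b1 held CCAAT alone, and neither was spelled in the windows of Srsf5 and Srsf6. The contrast rests on the windows shown, since Srsf1, Srsf7 and Srsf11, which were past 1.5-fold higher in EHT than in HE cells at E11, spelled neither motif, and Srsf5 was itself past 1.5-fold higher in this step at E10. TATAAA began 29 bases before the start of Srsf2 (position -29) and at -18 in Srsf3, and CCAAT began at -82, -58 and -51 in Srsf2, Srsf3 and Hnrnpa2b1. A promoter entry was found for 28 of the 29 members, Hnrnpul2 being without one. In the counts that follow, a gene counts when any of its windows holds the letters on either strand. Genes with more windows, such as Hnrnph1 with 5 and Hnrnpf with 4, thus have more chances of a match. TATAAA was spelled in 3 of these 28 (Hnrnpm, Srsf2 and Srsf3), against 14.3% of the 27025 genes with an entry. CCAAT on either strand was spelled in 16 of 28, against 37.5% of all genes. GGGCGG was spelled in 23 of 28, against 35.4%, and CGGAAG in 11 of 28, against 15.3%, both searched on both strands and able to overlap by shared letters. CACGTG was spelled in 3 of 28, against 6.86%. The median GC content of the first window of each member was 64.4%, against 52.4% over all 32851 entries, so that letters rich in G and C were more likely to be met in the members. A match is a string of letters in the window and is not evidence that a factor binds there.

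Levels in single cells are given as transcripts per 10000 transcripts of the genes listed at both stages, with the exact 95% interval that counting alone allows. Each population at each stage was 1 sample, except that both pre-HSC types came from 1 shared sample, so that no p-value can be given between populations. The spread within a population is instead given as the range over its column sets, the cells that share a column prefix. Whether these are separate sorts is not given in the labels. PCR and sorting add error that these intervals leave out.

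Hnrnpa2b1, which binds pre-mRNA as a core hnRNP particle protein, was the most abundant member at 15.1 per 10000 averaged over the 13 populations. Hnrnpab followed at 11.4, the SR gene Srsf3 at 9.50, Hnrnpf at 8.21, Hnrnpa3 at 8.15, Hnrnpa0 at 8.06, Hnrnpu at 8.04 and Hnrnpc at 7.69. These 8 genes made up 56.1% of the members' transcripts. Neighbours in this order had overlapping ranges over the populations, so that the order is one of averages only. Hnrnpa2b1 was lowest in E11 non-HE cells, at 11.46, and highest in E10 EHT cells, where its interval was 18.33 to 20.64, while Hnrnpc, a core particle protein that binds uridine runs, varied only from 6.05 in E10 non-HE to 8.98 in E11 YS cells. In all, 21 members reached 1 per 10000 in every population and 5 stayed below 1 in every population.

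The 5 low members were Hnrnph3, Hnrnpa1, Hnrnpul1, Srsf12 and Srsf4. Hnrnph3 averaged 0.341 per 10000 and Hnrnpa1, in other tissues among the abundant hnRNPs, averaged 0.0969. Hnrnpa1 has many near-identical processed copies in the genome, and how reads shared with such copies were counted is not given in the sources used here. Its low level is therefore uncertain, and with smaller weight the same holds for other members with processed copies, such as Hnrnpa3. Over all 13 populations Srsf12 and Srsf4 were each found as 1 transcript.

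Together the members supplied about 1 in 100 transcripts of endothelial cells and more of the cells that leave the endothelium. At E10 their share was 1.054% (0.9990 to 1.112) in non-HE, 1.271% (1.231 to 1.313) in HE and 1.533% (1.501 to 1.566) in EHT cells. IAHC cells gave 1.374% (1.326 to 1.424) and YS cells 1.367% (1.332 to 1.402). The column sets of non-HE (1.038 to 1.084%), HE (1.247 to 1.286%) and EHT cells (1.409 to 1.589%) did not overlap at E10. At E11 non-HE cells gave 1.030% (0.9756 to 1.087) and HE cells 0.9897% (0.9463 to 1.035), with overlapping intervals. The share was 1.377% (1.325 to 1.432) in EHT, 1.525% (1.476 to 1.576) in type I pre-HSC cells, and its interval was 1.447 to 1.553% in those of type II. IAHC cells of the c-kit+ CD31+ sort gave 1.436% (1.410 to 1.463), those of the c-kit+ sort 1.516% (1.474 to 1.558), and YS cells 1.637% (1.577 to 1.699). Sets of one E11 population spread widely, over 1.323 to 1.650% (type I), 1.361 to 1.625% (type II) and 1.313 to 1.798% (c-kit+ IAHC cells). Sets with the same number in their prefixes gave 1.471 and 1.450%, 1.650 and 1.625%, and 1.323 and 1.361% in type I and type II cells, so that the types were closer within a number than the numbers were to each other. What such a number marks is not given. The type I, type II and both IAHC ranges overlapped, and the single YS set lay inside that of the c-kit+ IAHC cells.

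**Figure D1:**
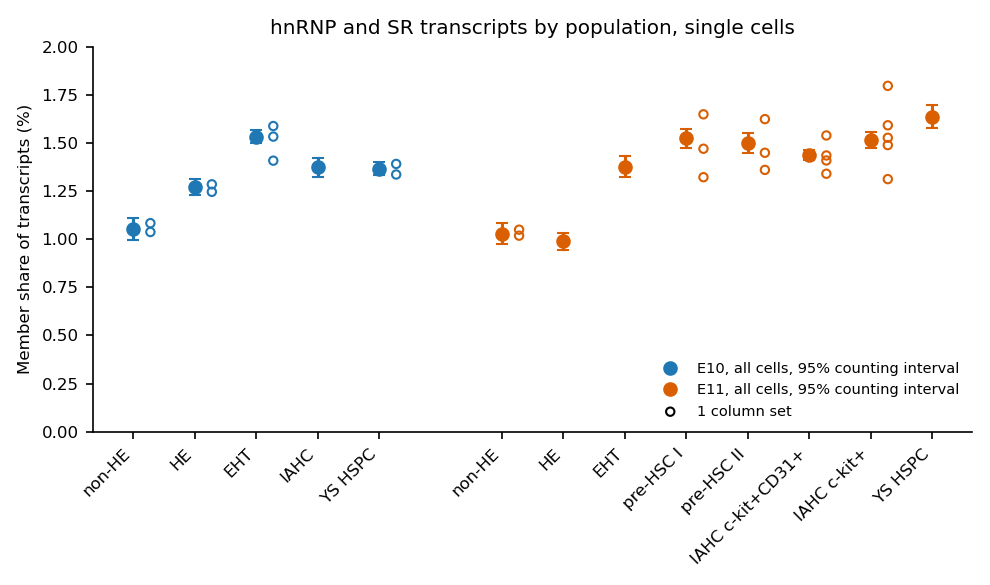
Percent of transcripts that came from the 29 members in each population at E10 (blue) and E11 (orange), as filled points with 95% counting intervals, and in each column set as open points where there was more than 1. Non-HE and E11 HE cells sit near 1%, and the EHT and later populations sit above them.

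Single cells overlapped far more than populations. The share per cell ran from 0.3667 to 2.033% in E10 HE cells, with a median of 1.267%, and from 0.8667 to 2.167% in E10 EHT cells, with a median of 1.533%. At 3000 transcripts per cell, the median number of members with a transcript was 15 in E10 non-HE, 17 in E10 HE and 18 in E10 EHT cells. At E11 it was 15 in non-HE, 14.5 in HE and 18 in EHT cells.

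The labels were checked against marker lists. All 6 endothelial markers (Cdh5, Pecam1, Vwf, Tie1, Eng, Gja5) had transcripts in every aortic population, and their summed level fell from 98.0 per 10000 in E10 non-HE and 70.0 in HE to 23.0 in EHT cells, and from 72.9 and 94.2 to 34.65 at E11. The 6 haematopoietic markers (Runx1, Gfi1, Myb, Sfpi1, Ptprc, Rac2) were all at 0 in E11 non-HE cells, summed to 2.76 in E10 HE and 1.213 in E11 HE cells, and reached 11.7 and 12.3 in E10 and E11 EHT cells. Gja5 was at 0 in YS cells. The 7 mesenchyme markers (Crabp1, Cxcl12, Pdgfrb, Sox11, Ptprd, Col3a1, Epha7) summed to 0.192 to 5.89 per 10000 and the 6 erythroid markers (Klf1, Gata1, Hba-x, Hba-a1, Hbb-y, Hbb-bh1) to 0.122 to 14.4, with 2 to 7 and 1 to 5 of them found in a population. Macrophage markers summed to 9.49 in E11 EHT cells, with 5 of 7 found, and 2 of those 46 cells held 4 or more of them. Without these cells the members' share in E11 EHT cells was 1.426%, inside the range of the E10 EHT column sets (1.409 to 1.589%).

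From HE to EHT nearly all members were higher. The summed log2 ratio was 0.27 (0.22 to 0.33) at E10 and 0.48 (0.39 to 0.56) at E11. Other lists moved in this step. The log2 ratios at E10 and E11 were -4.24 (-5.61 to -3.12) and -3.28 (-5.64 to -1.603) for the erythroid markers. They were -3.15 (-4.24 to -2.19) and -2.17 (-3.12 to -1.33) for the mesenchyme markers. The macrophage markers were higher in EHT cells, by 1.19 (0.39 to 2.07) and 5.23 (3.98 to 6.87). The part of these lists was not tested. Of the 24 members with at least 0.2 transcripts per cell, 22 were higher in EHT than in HE cells at E10 and 22 at E11, against 52.9% and 49.5% of all genes measured at this level. The median log2 ratio was 0.24 over the members and 0.05 over all genes at E10, and 0.45 and -0.01 at E11. Past 1.5-fold higher were 2 members at E10, where 19.48% of all genes were, and 8 at E11, where 24.75% were. None was past it lower, and 39% and 50.6% of all genes were past it in either direction. All 5 groups rose at both stages, by log2 ratios from 0.16 (hnRNP C, M, R, K and L) up to 0.38 (SR genes) in E10 cells and from 0.39 up to 0.55 in E11 cells, in the same groups.

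Srsf2, an SR protein that stays in the nucleus, was the only member past 1.5-fold in this step at both stages with an interval clear of 0. Its level was 4.56 (3.82 to 5.398) in HE and 7.91 (7.19 to 8.67) in EHT cells at E10, a 1.74-fold difference, and the sets did not overlap (3.42 to 5.25 and 6.83 to 9.32). At E11 it was 2.78 (2.09 to 3.62) in HE and 5.63 (4.606 to 6.82) in EHT cells, a 2.03-fold difference between 1 set each. Non-HE cells held 3.10 at E10 and 3.56 at E11. At E11 Srsf2 was at 9.82 (9.14 to 10.54) in c-kit+ CD31+ IAHC and 8.44 (7.48 to 9.49) in c-kit+ IAHC cells, above EHT cells, while type I (7.24, 6.19 to 8.41) and type II pre-HSCs (6.89, 5.81 to 8.12) had intervals that overlapped that of EHT cells. At E10 IAHC cells held 6.76 (5.71 to 7.94). YS cells, which are not aortic, held 7.97 (7.14 to 8.87) in E10 embryos and 10.1 (8.69 to 11.8) in E11 embryos. A transcript of Srsf2 was found in 68.4% of E10 HE cells and in 89.0% of E10 EHT cells at equal depth.

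The other SR genes that rose from HE to EHT past 1.5-fold were Srsf5 at E10 and Srsf1, Srsf3, Srsf7, Srsf10 and Srsf11 at E11. Srsf1, the founding SR protein, was at 4.35 in HE and 6.42 in EHT cells at E10 and at 3.39 and 5.74 at E11. Srsf3, the shortest SR protein and a factor in messenger RNA export, was at 7.18 and 9.34 at E10 and at 4.85 and 7.56 at E11. Srsf10 at E11 had an interval that includes 0 (log2 ratio 0.77, -0.12 to 1.71). Among the hnRNPs Hnrnpa3 was at 4.65 in HE and 7.72 in EHT cells at E11 (log2 ratio 0.73, 0.34 to 1.13), and Hnrnpr at 1.617 and 3.22 (0.99, 0.35 to 1.66). Hnrnpa2b1 rose at both stages by less than 1.5-fold, from 15.5 to an interval of 18.33 to 20.64 at E10 and from 12.2 to 18.1 at E11, and both intervals were clear of 0 (0.33, 0.17 to 0.49, and 0.56, 0.32 to 0.81).

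**Figure D2:**
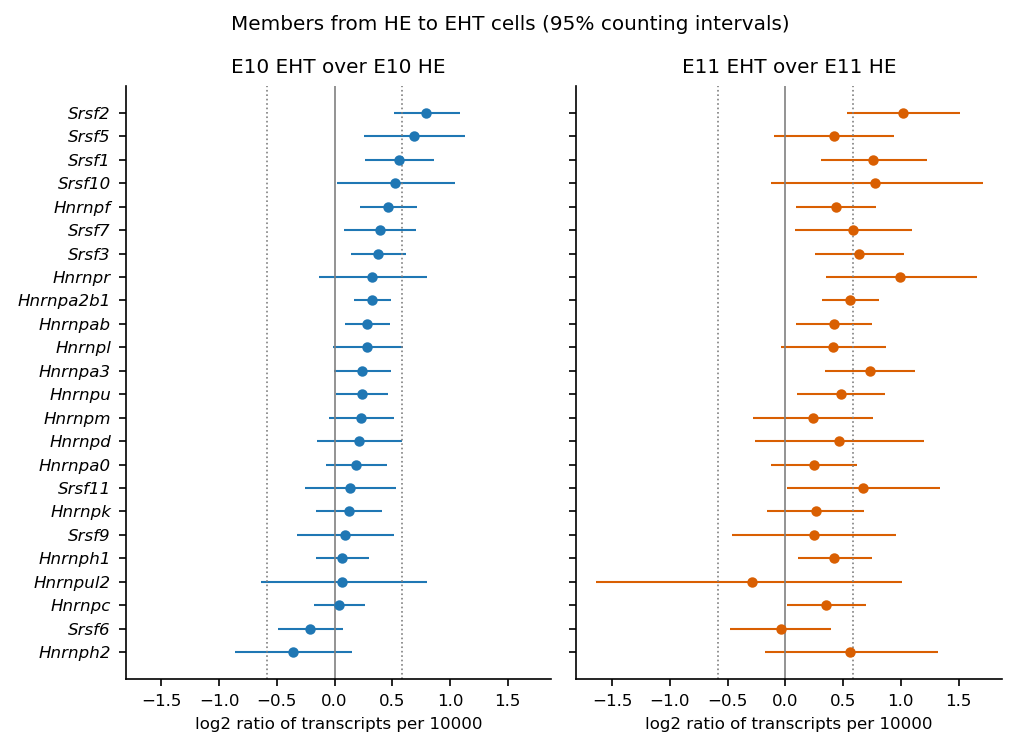
Log2 ratio of EHT over HE cells for each member with its exact counting interval, E10 on the left and E11 on the right, on 1 shared axis. Most points lie right of 0 at both stages, 22 of the 24 members in each panel, and Srsf2 lies farthest right among the abundant ones.

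From non-HE to HE the members were higher at E10, while at E11 the interval of their ratio included 0. The E10 columns are named early E11 in non-HE and E10.5 in HE cells, so that age cannot be told apart from this step. At E10 the members were higher in HE by 0.27 (0.18 to 0.36) on the log2 scale, with 20 of 24 above 0 against 52.8% of all genes, and 4 were past 1.5-fold higher and 1 lower where 39.8% of all genes were past it. Those higher were Hnrnpd (1.473 and 3.06), Hnrnpul2 (0.543 and 0.884, with an interval that includes 0), Srsf1 (2.64 and 4.35) and Srsf7 (2.33 and 4.15), and Srsf5 was lower (3.72 and 2.04). The erythroid markers were also higher in E10 HE than in non-HE cells (log2 ratio 3.899, 1.99 to 6.97) and the mesenchyme markers lower (-1.30, -1.88 to -0.72), and their part was not tested. At E11 the summed ratio was -0.06 (-0.16 to 0.04), and 0 of 24 members were past 1.5-fold where 44.4% of all genes were. Whether the 2 stages differ in this step was not tested, as each population was 1 sample.

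Proliferation genes rose with the members from non-HE to HE at E10 and from HE to EHT at both stages, but not from non-HE to HE at E11. The 12 proliferation genes, all found in every population, summed to 16.4 per 10000 in E10 non-HE, 34.4 in HE and 39.4 in EHT cells. At E11 they summed to 20.7 in non-HE, 10.51 in HE and 28.5 in EHT cells. In the E11 step from non-HE to HE their log2 ratio was -0.98 (-1.24 to -0.71), against -0.06 (-0.16 to 0.04) for the members. From EHT to IAHC cells at E10 proliferation genes were higher by 0.18 (0.07 to 0.29), while the members were lower (-0.16, -0.22 to -0.10). From EHT to c-kit+ CD31+ IAHC cells at E11 they were higher by 0.54 (0.41 to 0.67), against 0.06 (-0.00 to 0.12) for the members. The part of proliferation in the members' levels was not tested.

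In E10 IAHC cells most members were lower than in E10 EHT cells. The single IAHC set, at 1.374%, lay just below the lowest EHT set, at 1.409%, and strain cannot be told apart from this step. From EHT to IAHC cells the summed log2 ratio was -0.16 (-0.22 to -0.10), with 5 of 24 members above 0 against 51.9% of all genes, and 2 members were past 1.5-fold higher and 5 lower where 42.6% of all genes were past it. Hnrnpa0 rose from 6.86 to 11.1 and Hnrnpul2 from 0.925 to 1.55. Hnrnpd fell from 3.54 to 2.10, Hnrnph2 from 1.483 to 0.822, Hnrnpr from 2.39 to 1.46, Srsf5 from 3.28 to 2.01 and Srsf10 from 2.20 to 1.05. Among the groups, hnRNP F and H fell furthest (-0.35, -0.53 to -0.17). The erythroid markers summed to 0.122 per 10000 in E10 EHT and 5.02 in E10 IAHC cells, with 4 of 6 found in each, and their part was not tested. These verbs describe ratios between 1 sample and 1 sample, with intervals clear of 0.

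At E11 the ratio of c-kit+ CD31+ IAHC to EHT cells was 0.06 (-0.00 to 0.12), or 0.00 over the total as deposited, with 13 of 25 members above 0 against 51.9% of all genes. Past 1.5-fold were 5 members higher and 4 lower, where 52.7% of all genes were past it. Srsf2 was 1.74-fold higher, Hnrnpl, which binds CA repeats, rose from 5.04 to 7.79 and Hnrnpm from 3.70 to 6.11. Hnrnpul2 rose from 0.536 to 1.34, and Hnrnph3 was at 0.214 and 0.552 with an interval that includes 0. Hnrnph1 fell from 9.98 to 6.64, Hnrnph2 from 2.09 to 0.950, Hnrnpr from 3.22 to 2.07 and Srsf5 from 3.92 to 2.17. The macrophage markers were lower in these IAHC cells than in EHT cells (-2.29, -2.61 to -1.97) and the mesenchyme markers higher (1.598, 0.81 to 2.50). The erythroid markers (1.84, 0.205 to 4.17) and proliferation genes (0.54, 0.41 to 0.67) were also higher. The endothelial markers were lower (-0.695, -0.83 to -0.56). The part of these lists was not tested.

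Type I pre-HSCs gave a summed log2 ratio of 0.15 (0.07 to 0.22) over E11 EHT cells, but without their largest column set, of 34 cells, the ratio was -0.01, and over the total as deposited it was 0.05. The erythroid markers summed to 0.161 per 10000 in E11 EHT cells, with 2 of 6 found. In type I pre-HSCs they summed to 9.15, with 5 of 6 found. Other lists also moved from EHT to type I cells. The log2 ratios were -2.41 (-2.93 to -1.92) for macrophage and -0.48 (-0.65 to -0.32) for endothelial markers. They were 0.95 (0.01 to 1.96) for mesenchyme markers and 0.53 (0.38 to 0.69) for proliferation genes. The part of these lists was not tested. Hnrnpa0 was past 1.5-fold higher (7.08 and 11.4) and Hnrnph2 (2.09 and 1.149) and Srsf5 (3.92 and 1.96) lower, where 48.6% of all genes were past 1.5-fold. Type II and type I pre-HSCs did not differ by more than counting error in the sum (-0.02, -0.09 to 0.05), and only Hnrnpul2 was past 1.5-fold (0.766 in type I and 1.49 in type II), where 29.7% of all genes were. The c-kit+ sort of IAHC cells lay 0.08 (0.03 to 0.13) above the c-kit+ CD31+ sort, or 0.02 over the total as deposited, with 1 member higher (Srsf5) and 2 lower (Hnrnpl, from 7.79 to 4.67, and Hnrnph3) where 23.3% of all genes were past 1.5-fold. The erythroid markers were 3.03-fold and the mesenchyme markers 1.90-fold as high in the c-kit+ sort and the endothelial markers lower (-0.70, -0.86 to -0.55), with intervals clear of 0, and their part was not tested. Sets within a population were more than 1.5-fold apart for 13 of the 24 members in type I, 10 in type II and 18 in c-kit+ IAHC cells, where 1 set held 7 cells.

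YS cells were close to IAHC cells at E10 (-0.01, -0.07 to 0.06), where only Hnrnph1 was past 1.5-fold (5.62 in IAHC and 3.45 in YS cells) and 40.5% of all genes were. At E11 YS cells lay above IAHC cells by 0.19 (0.13 to 0.25), with 21 of 25 members above 0 against 48.4% of all genes. Past 1.5-fold there was 1 member, Hnrnph2 (0.950 and 1.51, with an interval that includes 0), where 41.7% of all genes were. Erythroid markers summed to 0.578 in E11 c-kit+ CD31+ IAHC and 14.4 in E11 YS cells. In the same comparison the endothelial (-2.75, -3.16 to -2.36) and mesenchyme markers (-2.71, -4.17 to -1.56) were lower in YS cells. Proliferation genes were higher (0.28, 0.17 to 0.38). The part of these lists in this difference was not tested.

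Hnrnph1, Srsf5, Srsf6 and Hnrnph2 were lower in IAHC and YS than in non-HE cells at E10 and were chosen after their values were seen. Hnrnph1, which binds runs of G, stood at 8.60, 7.82 and 8.20 in E10 non-HE, HE and EHT cells, and at 5.62 and 3.45 in IAHC and YS cells. At E11 it stood at 7.44, 7.43 and 9.98 in non-HE, HE and EHT cells, and at 6.64 and 5.10 in c-kit+ CD31+ IAHC and YS cells. It was thus lower in YS than in non-HE, HE and EHT cells at both stages. Srsf6 went from 5.43, 5.82 and 5.03 in non-HE, HE and EHT cells to 3.61 in IAHC and 3.76 in YS cells at E10. At E11 it held 4.65, 4.80 and 4.67, and then 4.44 and 5.21, a nearly flat course. Srsf5 held 3.18, 2.93 and 3.92 in E11 non-HE, HE and EHT cells. It held 2.17 in c-kit+ CD31+ IAHC, 2.49 in YS and 3.35 in c-kit+ IAHC cells. Hnrnph2 held 1.395, 1.905 and 1.483 in non-HE, HE and EHT cells and 0.822 and 0.686 in IAHC and YS cells at E10. At E11 its order differed, with 1.007, 1.415 and 2.09 in non-HE, HE and EHT cells. It held 0.950 in c-kit+ CD31+ IAHC, 1.206 in c-kit+ IAHC and 1.51 in YS cells. Hnrnpa0 and Srsf3 had the reverse order of IAHC and YS against non-HE cells. Srsf3 stood at 6.12, 7.18 and 9.34 in non-HE, HE and EHT cells at E10 and at 12.1 and 13.1 in IAHC and YS cells.

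**Figure D3:**
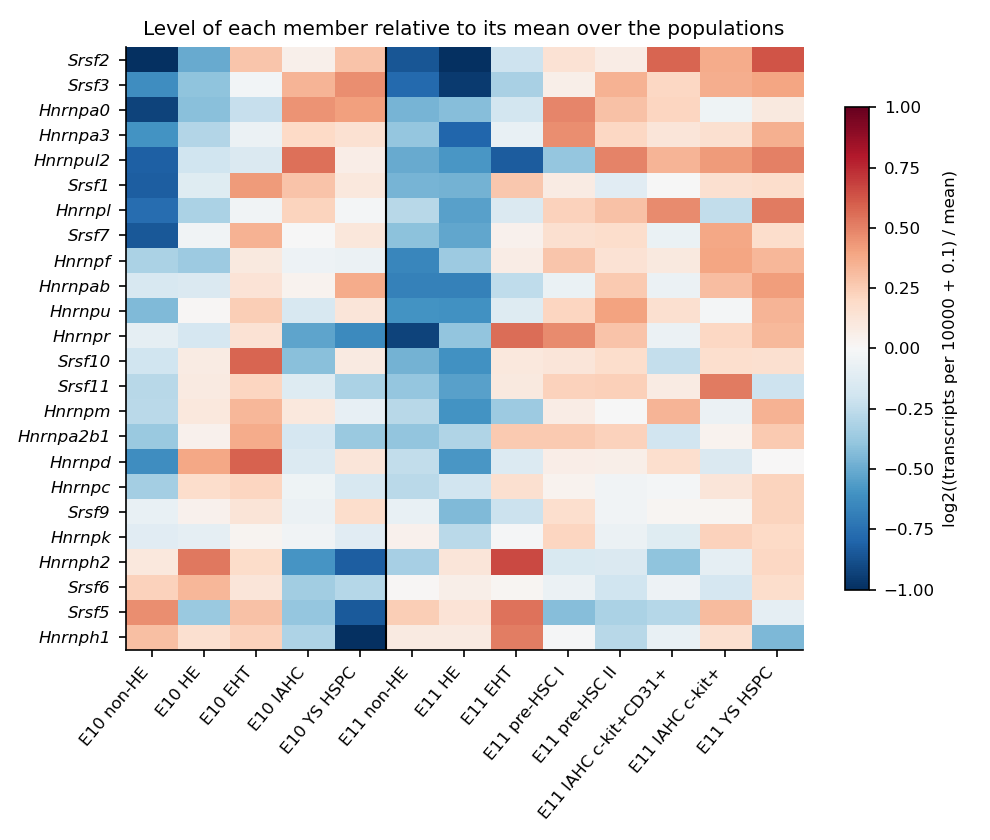
Level of 24 members (rows) in each population (columns, E10 left of the line and E11 right), as the log2 of transcripts per 10000 plus 0.1 relative to the member's mean over the populations. Srsf2 and Srsf3 in the top rows are low in non-HE and HE cells and high in cluster and YS cells, while Hnrnph1 in the last row is lowest in E10 YS cells.

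**Figure D4:**
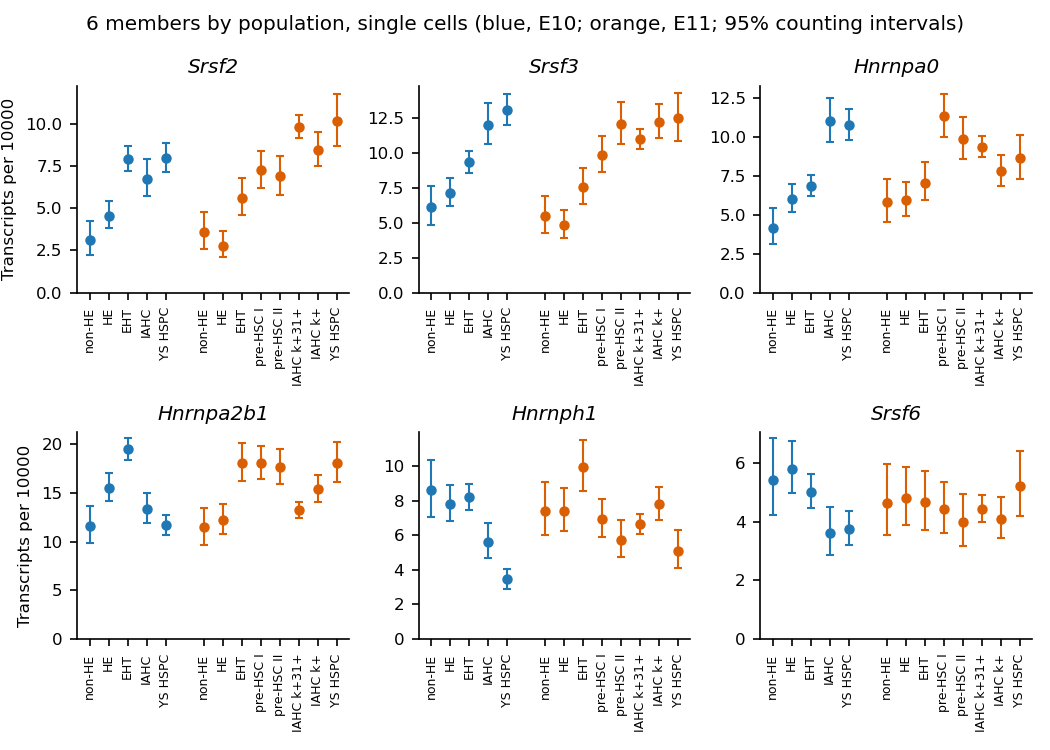
Levels of 6 members in each population, as transcripts per 10000 with 95% counting intervals, E10 in blue and E11 in orange; IAHC k+31+ is the c-kit+ CD31+ sort and IAHC k+ the c-kit+ sort. Srsf2 and Srsf3 are higher in IAHC and YS than in HE cells at both stages, Hnrnpa2b1 peaks in EHT cells at E10, and Srsf6 is nearly flat at E11.

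Between stages HE and EHT cells held less of the members at E11, and YS cells more, over the genes listed at both stages. Over the total as deposited the YS direction turned. E11 HE cells were below E10 HE cells by 0.36 on the log2 scale (-0.36, -0.44 to -0.28), with 2 of 24 members above 0 against 54.7% of all genes. Past 1.5-fold were 6 members, all lower, where 15.18% of all genes were lower and 37.8% past it in either direction. They were Hnrnpd (3.06 and 1.516), Hnrnpm (5.17 and 3.13), Hnrnpu (8.10 and 5.26), Srsf2 (4.56 and 2.78), Srsf11 (2.72 and 1.72) and Srsf10, whose interval includes 0. E11 EHT cells were below E10 EHT cells by less (-0.15, -0.22 to -0.09), with 5 of 24 members above 0 against 53.6% of all genes. The single E11 EHT set, at 1.377%, lay below the E10 EHT sets (1.409 to 1.589%). Without its 2 cells with 4 or more macrophage markers its share lay inside their range. Hnrnpd (3.54 and 2.09), Hnrnpm (6.07 and 3.70) and Hnrnpul2, whose interval includes 0, were past 1.5-fold lower. Of all genes, 12.89% were lower and 32.6% past it in either direction. Over the total as deposited, 13 of 24 members were past 1.5-fold lower in HE and 10 of 24 in EHT cells. In that case 23.88 and 26.3% of all genes were lower. Proliferation genes were lower at E11 too, by log2 ratios of -1.71 (-1.93 to -1.49) in HE and -0.47 (-0.61 to -0.33) in EHT cells. The haematopoietic markers were lower in E11 HE cells (-1.18, -1.91 to -0.51), and the macrophage markers were 7.66-fold higher in E11 than in E10 EHT cells. The mesenchyme markers were higher at E11 in both (0.99, 0.44 to 1.55, and 1.97, 0.72 to 3.25). So were the endothelial markers (0.43, 0.34 to 0.52, and 0.59, 0.45 to 0.73). The part of these lists in the stage differences was not tested.

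Non-HE cells hardly differed between the labelled stages (-0.03, -0.14 to 0.08), with Hnrnpr alone past 1.5-fold (2.02 and 1.08, interval including 0) where 39.3% of all genes were. By their column names the E10 non-HE cells are early E11, so that this ratio may not span the 2 stages. In IAHC cells the ratio was 0.06 (0.01 to 0.12) and Hnrnph3 alone was past 1.5-fold, with an interval that includes 0, where 26.8% of all genes were. In YS cells it was 0.26 (0.20 to 0.33), with 22 of 25 members above 0 against 52.6% of all genes. The IAHC and YS ratios both turned below 0 over the total as deposited. Past 1.5-fold higher in E11 YS cells were Hnrnpa2b1 (11.7 and 18.1), Hnrnph2 (0.686 and 1.51), Hnrnph3 (0.307 and 0.811), Hnrnpr (1.348 and 2.72) and Srsf5 (1.44 and 2.49), where 19.96% of all genes were higher and 34.8% past it in either direction. Hnrnpd, which binds AU-rich messages, and Hnrnpm were lower at E11 in 2 populations. In IAHC cells Hnrnph3 no longer counted as past 1.5-fold at a level of 0.5 transcripts per cell or over the total as deposited. Other lists moved between stages too. In IAHC cells the erythroid markers were lower at E11 (-3.12, -3.65 to -2.61) and the mesenchyme markers higher (3.32, 2.07 to 4.96). In YS cells the erythroid (1.07, 0.82 to 1.32) and endothelial markers (1.293, 0.73 to 1.86) were higher. Their part was not tested.

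Stage comparisons rest on the choice of total. The E10 table lists none of the 102 rows of ribosomal protein genes (symbols beginning with Rpl or Rps) that the E11 table lists, and these rows take 13.9 to 25.5% of the E11 transcripts. Over the total as deposited, the stage ratio becomes -0.30 in IAHC and -0.15 in YS cells, the reverse of the values above, and -0.58 in HE and -0.46 in EHT cells. Comparisons within E10 do not meet this difference. Within E11 the ratios also depend on the total, since the rows take unlike shares of the populations, and EHT over HE becomes 0.39, with 6 members past 1.5-fold higher where 21.23% of all genes were. The E10 cells were also brought to 3000 transcripts by the authors and the E11 cells to 5000, and stage cannot be told apart from the day of sorting and sequencing.

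The rest of the splicing machinery was followed in 3 lists. The 33 genes of the spliceosome core, which build the small nuclear ribonucleoproteins and their partners, summed to 78.5, 100 and 125 per 10000 in E10 non-HE, HE and EHT cells and to 139 and 144 in IAHC and YS cells. Unlike the members, they were thus higher in E10 IAHC than in EHT cells, by 0.15 (0.09 to 0.21) on the log2 scale. From HE to EHT 6 of 33 were past 1.5-fold higher at E10, and 10 of 33 at E11, against the same shares of all genes as for the members, and none was lower. The 22 other hnRNP-like genes and splicing regulators, such as Ptbp1 and Tra2b, had E10 and E11 log2 ratios of 0.22 (0.14 to 0.31) and 0.29 (0.16 to 0.42) for the same step. At E10 4 of the 21 that reached the level minimum were higher and 3 lower, and at E11 6 were higher and 2 lower, while 821 of 4205 and 1454 of 5616 genes in all were lower. The E10 counts of higher genes in both lists are thus near the share over all genes. The 7 SR kinase and importer genes (Clk1 to Clk4, Srpk1, Srpk2 and Tnpo3) summed to 5.51 in E10 HE and 4.99 in E10 EHT cells, a log2 ratio of -0.14 (-0.43 to 0.14), and at E11 the ratio was -0.04 (-0.42 to 0.34). Both intervals include 0, and their upper bounds lie below the ratios of the SR genes for the same step (0.38 and 0.55).

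In wIAHCs each picked cluster is a library, which allows a test. A total of 57 of 109 wIAHCs held at least 5000 transcripts, namely 21 ventral and 7 dorsal at E10 and 17 ventral and 12 dorsal at E11, with 5099 to 115328 transcripts each. The E11 wIAHCs came in 2 collection sets, set 1 with 4 ventral and 6 dorsal and set 2 with 13 ventral and 6 dorsal. Which wIAHCs came from the same embryo is not given, so p-values measure only the spread between these wIAHCs and take them as independent. In these bulk libraries fewer cells of a type and less RNA per cell cannot be told apart. Tests were edgeR quasi-likelihood tests with Benjamini-Hochberg adjustment over all genes that passed its filter on low counts, which kept 260 genes and 11 of the 29 members. A milder filter, with a minimum count of 3 in place of 10, was added after the data were seen and kept 1631 genes and 24 members. Members that failed a filter were not tested, and 2 of the 29 had no transcript in any of the 57 wIAHCs.

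The members' share of transcripts was lower in E11 than in E10 wIAHCs, with overlap. Its lowest, median and highest values were 146.4, 177.3 and 229.7 transcripts per 10000 in the 21 E10 ventral wIAHCs and 148.1, 163.3 and 186.9 in the 7 E10 dorsal ones. In E11 wIAHCs they were 93.61, 132.0 and 196.9 (17 ventral) and 80.95, 142.0 and 190.8 (12 dorsal). Within E11, set 1 had means of 169.3 ± 31.85 (SD, n = 4) ventral and 153.6 ± 29.93 (SD, n = 6) dorsal. Set 2 had 126.5 ± 14.28 (SD, n = 13) and 124.2 ± 32.35 (SD, n = 6), below set 1 on both sides. Set 1 means were closer to those of E10, 182.8 ± 22.17 (SD, n = 21) ventral and 165.9 ± 15.28 (SD, n = 7) dorsal.

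**Figure D5:**
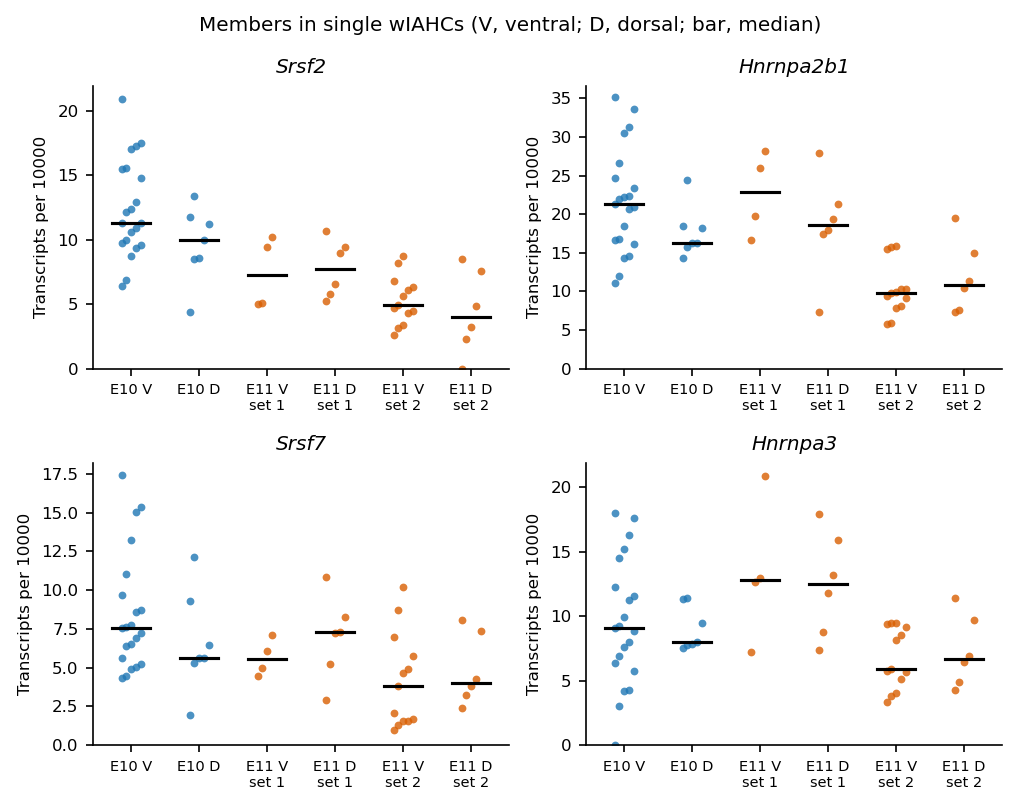
Transcripts per 10000 of 4 members in each wIAHC, 1 point each, by stage, side (V, ventral; D, dorsal) and E11 collection set, with the median as a bar. For Srsf2 and Hnrnpa2b1 the set 2 medians lie below the E10 medians, and for Hnrnpa2b1 the set 1 medians lie above them on the same side.

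Srsf2 was the member called lower at E11 when both sides were averaged. Its lowest, median and highest values were 6.37, 11.3 and 20.9 per 10000 in E10 ventral wIAHCs and 2.60, 5.07 and 10.2 in E11 ventral wIAHCs, so that every E11 ventral value lay below the E10 median while the ranges overlapped. In dorsal wIAHCs they were 4.42, 9.94 and 13.4 at E10 and 0, 6.16 and 10.6 at E11. The difference was 0.61 lower on the log2 scale averaged over sides (-0.61 ± 0.16 SE, edgeR adjusted p = 0.0027) and 0.88 lower ventrally (-0.88 ± 0.18, edgeR adjusted p = 9.0e-05). The dorsal difference was -0.33 ± 0.27 (edgeR adjusted p = 0.496). In the average over sides 14.2% of the genes tested were lower at E11, and 1 of 11 members was.

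Ventral wIAHCs had 3 members lower at E11 of the 11 tested, against 13.1% of all genes tested, and their median log2 difference was -0.26, against 0.00 over all genes. Besides Srsf2 these were Hnrnpa2b1, with 11.02, 21.3 and 35.2 at E10 and 5.82, 10.3 and 28.3 at E11 (-0.50 ± 0.16, edgeR adjusted p = 0.0168), and Srsf7. Srsf7, an SR protein with a zinc knuckle, had 4.36, 7.55 and 17.4 at E10 and 0.999, 4.66 and 10.2 at E11 (-0.62 ± 0.21, edgeR adjusted p = 0.0216). In both genes the ranges overlapped, with the E11 medians near the E10 minima. With the milder filter Srsf2 and Hnrnpa2b1 remained called ventrally, against 4.11% of all genes lower, while Srsf7 had a log2 difference of -0.59 and was not called. Averaged over sides, the milder filter called Hnrnpd (-0.84 ± 0.21, edgeR adjusted p = 0.00269), Srsf2 (-0.73 ± 0.17, edgeR adjusted p = 0.00117) and Srsf3 (-0.48 ± 0.16, edgeR adjusted p = 0.0327) lower, against 6.81% of all genes. Hnrnpd ran from 1.906 to 11.02 in E10 ventral and from 4.31 to 6.34 in E10 dorsal wIAHCs, and from 1.16 to 6.75 and from 0 to 5.37 at E11.

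The stage calls depended on the E11 set. Without set 2 Srsf2 had a ventral difference of -0.61, Srsf7 one of -0.43 and none of the 3 ventral calls held, Hnrnpa2b1 turned to 0.22, and Hnrnpc alone was called lower, both ventrally and averaged over sides. The averaged call of Srsf2 was lost in that case (-0.34 ± 0.19) and with a depth minimum of 10000 transcripts (-0.49 ± 0.20). The ventral call of Hnrnpa2b1 was lost with no low count filter (-0.64 ± 0.22) and with that depth minimum (-0.46 ± 0.20), and that of Srsf7 in both cases (-0.75 ± 0.28 and -0.38 ± 0.22). With a depth minimum of 3000 Srsf7 did not pass the filter and was not tested. Without set 1 all 3 ventral calls held and Hnrnpf joined them. Between the E11 sets, with side in the model, Hnrnpa2b1 was lower in set 2 than in set 1 (-0.98 ± 0.20, edgeR adjusted p = 5.8e-04) and so was Hnrnpa3 (-0.84 ± 0.24, edgeR adjusted p = 0.0114), 2 of the 4 members tested, where 9.58% of 167 genes were lower. Hnrnpa3 was not called with no filter (-1.13 ± 0.34) or with a depth minimum of 10000 (-0.95 ± 0.30), and was not tested with one of 3000. In ventral wIAHCs Hnrnpa2b1 averaged 22.7 ± 5.35 (SD, n = 4) in set 1 and 10.3 ± 3.42 (SD, n = 13) in set 2, and the sets did not overlap (16.7 to 28.3 and 5.82 to 15.9). Under the milder filter Hnrnpa0 was also lower in set 2 (-0.92 ± 0.21, edgeR adjusted p = 0.00913), 3 of 20 members against 2.26% of 973 genes.

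Erythroid markers moved with the sets. The 6 genes summed to 0.926 to 22.4 per 10000 in set 1, 23.7 to 3339 in set 2 and 0 to 7.03 at E10. All 6 had transcripts in set 2, 4 in ventral and 5 in dorsal set 1, and Hba-a1 was at 0 in E10 wIAHCs. Without the 3 wIAHCs with over 10% haemoglobin transcripts, all in set 2, Hnrnpa2b1 was lower in set 2 by as much (-0.97) and Srsf2 lower at E11 ventrally by as much (-0.90), while Srsf7 lost its call (-0.52). Proliferation genes averaged 45.1 ± 8.79 (SD, n = 21) in E10 ventral and 39.8 ± 6.56 (SD, n = 17) in E11 ventral wIAHCs. Mesenchyme markers had a median of 0.3267 per 10000 at E10 and 2.885 at E11. Endothelial markers averaged 7.785 in E10 dorsal and 15.28 in E11 dorsal wIAHCs, and 8.252 and 8.917 in ventral ones. The part of these lists in the differences was not tested.

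No member was called between ventral and dorsal wIAHCs, at E10 or at E11, where 0% of all genes were called at either stage. At an unadjusted p under 0.05 there were 20 genes at E10 and 23 at E11, and 0 of the 11 members in each. The stage difference itself was not called as different between sides for any of the 260 genes (0%), with 26 genes and 0 members at an unadjusted p under 0.05. In dorsal wIAHCs 9.23% of all genes were called between stages and 0 of 11 members, also at an unadjusted p under 0.05. DESeq2 called 0 members in these 4 comparisons too. With the milder filter 4.41% of all genes and 0 of 24 members were called dorsally, where 3 members had an unadjusted p under 0.05. The larger ventral difference of Srsf2 is therefore not shown to differ from the dorsal one (interaction -0.55 ± 0.33, edgeR adjusted p = 0.554). These fits have no term for the collection set, and the E11 sets differ in their share of ventral wIAHCs. The mean sum of the members was higher ventrally than dorsally within each E11 set, but lower over both sets (136.6 and 138.9 per 10000). With the set in the model, a fit added after the data were seen, the interaction of Srsf2 was -0.34 ± 0.33 (edgeR adjusted p = 0.906) and again 0 genes were called between sides at either stage or for the interaction. In that fit Srsf2 (-0.77 ± 0.18, edgeR adjusted p = 6.7e-04) and Hnrnpa2b1 (-0.38 ± 0.14, edgeR adjusted p = 0.0306) stayed lower ventrally at E11, where 10.38% of all genes were lower, and Srsf7 was not called (-0.54 ± 0.22, edgeR adjusted p = 0.0588).

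Sorted IAHC cells and wIAHCs did not move alike for Srsf2 between stages. In single c-kit+ CD31+ IAHC cells it was 6.76 (5.71 to 7.94) at E10 and 9.82 (9.14 to 10.54) at E11, whereas its ventral wIAHC median went from 11.3 to 5.07. Hnrnpa2b1 was 13.4 and 13.2 in the single cells, against ventral wIAHC medians of 21.3 and 10.3. The latter pools E11 sets with medians of 22.9 (set 1) and 9.743 (set 2). The single-cell levels are over the genes listed at both stages. The total as deposited lowers the E11 levels, and it turned the members' IAHC ratio from higher to lower. The cells and the wIAHCs were prepared separately, 1 by sorting and 1 by picking, and the difference between them was not tested. Of the spliceosome core, 6 genes were tested in wIAHCs and Snrpb alone was called lower at E11 (-0.59 ± 0.21, edgeR adjusted p = 0.0296, averaged over sides), a call that was lost without set 1 (-0.50 ± 0.28), without the haemoglobin-rich wIAHCs (-0.53 ± 0.22) and with a depth minimum of 10000 (-0.49 ± 0.23). With a depth minimum of 3000 Snrpb was not tested. With the milder filter Sf3b3 joined it among 29 tested, and under that filter none of the 18 hnRNP-like genes and regulators nor the 1 kinase gene tested was called between stages.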

How the data were processed

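Single cells and single wIAHCs were prepared by CEL-Seq with unique molecular identifiers. Per the submitters' processing notes reads were mapped with BWA 0.6.2-r126 to mm10. The authors deposited estimated counts: transcript numbers corrected for identifier saturation, brought to 3000 transcripts per cell at E10 and 5000 at E11 and with 0.1 added in the single-cell tables, and not scaled in the wIAHC table. Here 0.1 was taken off again, wIAHC values were rounded for tests only, and 0 columns of other series were present. Single-cell levels were divided by the total over the 19322 genes listed at both stages, a departure from the planned deposited total, since the E10 table lists no Rpl or Rps row; this left 3171 to 4729 transcripts in an E11 cell. 0 cell columns were identical. wIAHC values per 10000 used the same 19322 genes, while the tests used every gene but the ERCC spike-ins.

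Populations were taken from the sample labels and column prefixes, and the pre-HSC types from the prefixes alone. With 1 sample per population, and 1 shared by both pre-HSC types, ratios carry exact 95% conditional binomial intervals and shares exact Poisson intervals. A gene counts as past the threshold at 1.5-fold with at least 0.2 transcripts per cell in 1 of the 2 populations. In all 16 pairs were compared. wIAHCs with at least 5000 transcripts were tested with edgeR 4.0.16 (quasi-likelihood, TMM, filterByExpr, cell means of stage and side, adjusted p under 0.05) and, as an alternative, DESeq2 1.42.0, in R 4.3.3. The edgeR test between stages, averaged over sides, was also run on simulated counts drawn from the means and spread of these wIAHCs. Values of other alternatives are in the closing part. Figures and single-cell values were made with Python 3.11.15, pandas 2.3.3, numpy 2.4.6, scipy 1.17.1 and matplotlib 3.10.9. Promoters came from a RefSeq table on GRCm38.

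The members and lists were chosen with earlier results of these data known. Values are given in full for members called in a wIAHC comparison, for the 8 with the highest mean level, for members past 1.5-fold from HE to EHT at both stages in 1 direction with intervals clear of 0, and for members past 1.5-fold between stages in 1 direction in at least 2 populations.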

Additional observations from a re-analysis of the deposited data

Results flagged for a closer look

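In E10 dorsal wIAHCs (n = 7) the highest value of Hnrnpa2b1, 24.4 transcripts per 10000, stood apart from the nearest other wIAHC at 18.5 and from the median of 16.3. It was picked out because its gap to the next value exceeded Dixon's 95% limit for 7 samples. A total of 20 groups were screened in this way (5 values in 4 groups of wIAHCs), and chance marks about 1 in 20.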

How the results depend on the processing

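The numbers in the prefixes of the pre-HSC column sets allow a pairing of the types. With that replicate block (the mean of the ratios within sets of 1 number) the log2 ratio of type II over type I was 0.00. Without the block, the ratio over the pooled remaining cells was -0.04 to 0.03 when a number was left out of both types. The E11 ventral and dorsal wIAHCs share collection sets, and with the set as a block in the model the number of members lower ventrally was 2 in place of 3, and 1 averaged over sides as before. No other groups compared share 2 or more leading set numbers.

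In wIAHCs the number of members called averaged over sides, 1 in the fit described, was 3 of 27 with no low count filter (2.392% of all genes lower), 0 of 18 with a depth minimum of 10000 (8.776%), 3 of 24 with a minimum count of 3 (6.81%), and 1 to 2 when either E11 set was left out (11.54 and 13.31%). The ventral number, 3, was 1 of 27 with no filter (0.9246%) and 1 to 4 when a set was left out (4.734 and 14.11%). The number between sets, 2, was 1 of 27 with no filter (0.3995%) and 1 of 2 with a depth minimum of 3000 (7.586%). No setting called a member higher. Hnrnpa2b1 ranged from -0.93 without E11 set 1 to 0.22 without set 2 in ventral wIAHCs, and the cause was not tested.

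With 1 column set left out, the share was 1.486 to 1.566% in E10 EHT, 1.367 to 1.616% in type I pre-HSC, 1.391 to 1.577% in type II pre-HSC and 1.393 to 1.468% in c-kit+ CD31+ IAHC cells, and the log2 ratio was -0.01 to 0.23 for type I pre-HSC over EHT and -0.13 to 0.13 for type II over type I, where the set was left out of 1 type alone. With the deposited total, which counts the Rpl and Rps rows at E11 alone, E11 shares were 0.8867% (non-HE), 0.8513% (HE), 1.117% (EHT), 1.156% (type I), 1.132% (type II), 1.113% (c-kit+ CD31+ IAHC), 1.129% (c-kit+ IAHC) and 1.229% (YS). Log2 ratios then were 0.39 for EHT over HE, 0.00 for c-kit+ CD31+ IAHC over EHT, 0.05 for type I over EHT and 0.02 between the IAHC sorts. Between stages they were -0.25 (non-HE), -0.58 (HE), -0.46 (EHT), -0.30 (IAHC) and -0.15 (YS), the IAHC and YS values turning from higher to lower. Members past 1.5-fold lower at E11 then numbered 3 of 24, 13 of 24, 10 of 24, 3 of 25 and 1 of 25 in the same order, where 21.45, 23.88, 26.30, 26.53 and 36.59% of all genes were lower. In YS 3 of 25 were higher (8.913% of all genes), with 0 higher in IAHC and 0 higher between the IAHC sorts.

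At 2-fold in place of 1.5-fold, 1 member was higher from E10 non-HE to HE (9.243% of all genes), 1 lower from E10 EHT to IAHC (11.40%), 1 higher from E11 HE to EHT (13.57%), 2 higher and 1 lower from E11 EHT to IAHC (12.50 and 16.11%), 1 lower between the IAHC sorts (3.594%), 1 lower at E11 in HE (6.202%) and 3 higher at E11 in YS (8.913%), and 0 in each other count. At a level of 0.5 transcripts per cell, 1 of 22 was higher from E10 EHT to IAHC (22.51%), 1 of 23 lower between the IAHC sorts (8.096%) and 0 higher at E11 in IAHC. Low counts limit Hnrnph3, Hnrnpul2 and Srsf10, whose intervals often include 0.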
